A study of Drosophila melanogaster with 3 samples.

Results

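The Fat and Dachsous system was examined through 7 genes, ft, ds, fj, d, app, Fbxl7 and lft, which were taken by name from the deposited table of 17611 genes of Drosophila melanogaster wing imaginal discs. All 7 names matched a row. The wing disc is the larval epithelium that forms the adult wing and dorsal thorax. The 3 libraries form 1 group, called wild type in the labels but with the genotype w;apGAL4/+. All larvae thus carried 1 copy of the GAL4 driver of apterous, a gene of the dorsal compartment, and no library without it was used here. Larvae were kept at 25 °C until they wandered at the end of larval life, about 5 days after egg laying, and each RNA sample pooled 100 to 120 discs. No label states that the samples are independent cultures. The p-values therefore measure only how far these 3 samples scatter, which may be technical.

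Fat and Dachsous are giant cadherins that bind each other between neighbouring cells, Dachsous acting as the ligand of Fat. Four-jointed, a Golgi kinase, phosphorylates their cadherin domains and changes how strongly they bind, and in the wing disc Dachsous and Four-jointed are made in opposing gradients. Inside the cell Fat keeps the unconventional myosin Dachs away from the membrane. Through Dachs it acts on the Hippo growth pathway and on planar polarity, the alignment of cells within the epithelium. Bulk RNA of whole discs holds no spatial pattern, and fewer cells expressing a gene cannot be told apart from less RNA per cell.

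The 3 libraries held 25047773 to 26454949 reads recovered from the table. All 7 disc epithelium markers (nub, vg, ap, salm, pnr, eyg and hth) stood above 1 FPKM, where FPKM is the number of fragments per kilobase of exon after scaling for library size, and their summed level was 309 to 320 FPKM per library. Of markers of other tissues, 6 of 6 for myoblasts (summed level 170 to 184 FPKM), 4 of 4 for trachea (314 to 356 FPKM) and 5 of 5 for hemocytes (33.4 to 40.9 FPKM) passed the same test. The myoblast and tracheal sums were carried mostly by a few genes. Ama had a mean of 117 FPKM, where the median of the myoblast markers was 12.4 FPKM. In the tracheal sum verm and serp had means of 235 and 81.4 FPKM, but trh and btl only 15.95 and 3.97 FPKM. The median of the disc epithelium markers was 52.7 FPKM. Transcripts of other larval organs varied more between libraries. The summed gut markers stood at 6.70, 868 and 384 FPKM in libraries 1, 2 and 3 with 1 of 4 above 1 FPKM by the test, the salivary gland markers at 126, 806 and 287 FPKM with 5 of 5, and the fat body markers at 383, 592 and 1372 FPKM with 4 of 4. Of the 4 neuronal and glial markers only elav passed, and their sum was 3.26 to 3.39 FPKM. None of these markers was at 0 in all libraries. The summed level of the 7 Fat and Dachsous system genes was 490, 467 and 480 FPKM in libraries 1, 2 and 3. Divided by the summed disc epithelium markers it was 1.53, 1.51 and 1.55. The part of the other tissues in these values was not tested, nor was that of the apterous driver in the level of the marker ap.

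All 7 genes of the system were expressed in every library, and their FPKM spanned a factor of 14.9, from the lowfat gene lft at the top to the palmitoyltransferase gene app at the bottom. Per mean transcript length, the other length scale given below, the span was 8.27, with Fbxl7 lowest. Each stood above 1 FPKM (limma, one-sided, Benjamini-Hochberg adjusted p from 3.87e-06 to 5.34e-06), against 53.4% of the 13909 genes tested. Above 10 FPKM stood 6 of the 7 (limma adjusted p from 3.94e-05 to 0.000301), against 38.1% of genes, and app was the exception (adjusted p = 1). That exception depended on the length, since per mean transcript length all 7 stood above 10 (limma adjusted p = 0.000189 for app), against 39.8% of genes. Their median level was 72.7 FPKM, where the median of all genes tested was 3.58 FPKM. Among these genes lft ranked at percentile 96.8, d at 94.3, fj at 94.1, ds at 92.5, ft at 87.5, Fbxl7 at 69.8 and app at 59.0.

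**Figure D1:**
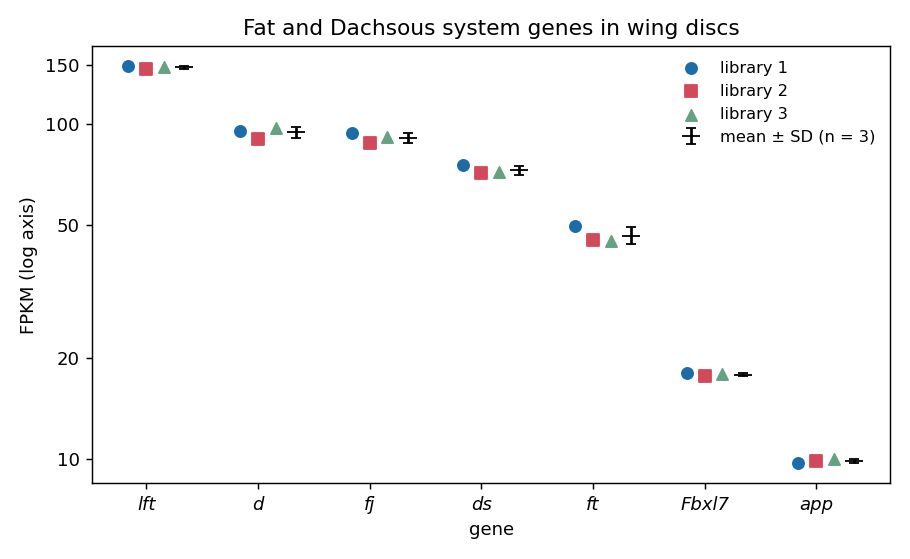
Level in FPKM (log axis) of each gene in libraries 1, 2 and 3 (points), with the mean and SD of the 3 libraries (black). The gene d lies above fj in each of the 3 libraries, but their ranges over the libraries overlap. The ranges of every other pair of neighbours in the order do not overlap.

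The genes of the receptor and its ligand are described first. The Fat gene ft (FBgn0001075) lies on the minus strand of chromosome 2L at 4198404 to 4221796 (dm6 coordinates) and has 16852 bases of merged exons, with a coding sequence for 5147 residues. It stood at 49.6, 45.0 and 44.7 FPKM in libraries 1, 2 and 3. Library 1 was the highest and the other two were close together, and the mean was 46.4 ± 2.72 FPKM (SD, n = 3). The Dachsous gene ds (FBgn0284247), on the minus strand of 2L at 640013 to 714983, spans 74971 bases, has 12427 bases of merged exons and codes for 3556 residues. Its levels were 75.2, 71.3 and 71.6 FPKM, with a mean of 72.7 ± 2.17 FPKM, again highest in library 1. The ligand gene exceeded the receptor gene in every library, by a log2 ratio of 0.60, 0.66 and 0.68. The fit across all genes gave a log2 ratio of 0.65 ± 0.07 (SE; limma, two-sided, adjusted p = 0.00154), which is 1.57 times the level of ft.

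The gene fj (FBgn0000658), whose product phosphorylates both cadherins, lies on the plus strand of chromosome 2R at 18232761 to 18236311 and consists of a single exon of 3551 bases. It stood at 94.0, 87.6 and 91.2 FPKM, a mean of 90.9 ± 3.20 FPKM, lowest in library 2. The kinase gene was above both of its substrates in 3 of 3 libraries. It exceeded ds by a log2 ratio of 0.32 ± 0.03 (SD, n = 3; exact sign-flip permutation p = 0.25, the smallest that 3 libraries can give) and ft by 0.97 ± 0.07 (SE; limma adjusted p = 0.000463).

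The gene lft (FBgn0032230), at 2L 10364471 to 10366410 on the plus strand, encodes a small protein of 268 residues that binds the intracellular domains of Fat and Dachsous and raises their amounts. It was the most highly expressed of the 7, at 149, 146 and 147 FPKM, with a mean of 147 ± 1.53 FPKM. The libraries differed little, and no other gene of the system reached its level in any of them. It stood above ft by a log2 ratio of 1.66 ± 0.07 (SE; limma adjusted p = 0.000113), or 3.17 times, and above ds by 1.02 ± 0.03 (SD, n = 3; 3 of 3 libraries; exact sign-flip permutation p = 0.25).

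The genes that act inside the cell stood at very different levels. The gene d (dachs, FBgn0262029), at 2L 8466817 to 8488671 on the plus strand, encodes the myosin that Fat restrains. It was at 95.3, 90.3 and 96.9 FPKM, a mean of 94.2 ± 3.43 FPKM, and library 2 was the lowest. It exceeded ft by a log2 ratio of 1.02 ± 0.08 (SE; limma adjusted p = 0.000512), 2.03 times its level. Against fj the log2 ratio was 0.05 ± 0.03 (SD, n = 3). That ratio was small but positive in 3 of 3 libraries (exact sign-flip permutation p = 0.25). The ranges of d and fj over the libraries overlapped, so their levels were separated only within each library.

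Fbxl7 (FBgn0038385), at chromosome 3R 15920898 to 15932887 on the plus strand, encodes an F-box protein, the substrate-binding subunit of a ubiquitin ligase, that binds the intracellular domain of Fat and lowers Dachs at the membrane. It stood at 18.1, 17.7 and 17.9 FPKM, a mean of 17.9 ± 0.184 FPKM. The level lay below ft in every library, with a log2 ratio of -1.37 ± 0.07 (SE; limma adjusted p = 0.000193). The myosin gene d stood 5.23 times above it (log2 ratio 2.39 ± 0.04, SD, n = 3; exact sign-flip permutation p = 0.25). Exons of genes on the other strand cover 14.7% of the Fbxl7 exons, and no source used here says if reads were assigned by strand. These genes, CG5478 and asRNA:CR46470, stood at 0.0242 and 0.142 FPKM.

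The gene app (approximated, FBgn0260941), on the minus strand of chromosome 3L at 12206238 to 12266841, encodes a palmitoyltransferase of the DHHC type, an enzyme that attaches a fatty acid to proteins such as the intracellular domain of Fat. It was the lowest of the 7, at 9.74, 9.90 and 10.01 FPKM, with a mean of 9.88 ± 0.135 FPKM. Relative to ft its log2 ratio was -2.22 ± 0.08 (SE; limma adjusted p = 6.76e-05). In all, 4 of the other 6 genes stood above ft, where 10.1% of all genes tested did, and 2 stood below it, where 84.8% of all genes did. These tests share the values of ft, and their small p-values rest on a spread estimated across all genes, since an exact sign-flip permutation test of 3 libraries cannot go below p = 0.25.

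The order of the 7 genes depended on how reads are divided by gene length, since their merged exons run from 1281 bases in lft to 16852 in ft. In recovered reads ds came first, with 24878, 22989 and 22246 reads in libraries 1, 2 and 3, and ft second, with 22244, 19668 and 18858. The gene lft, first by FPKM, came after ds, ft, d and fj by reads, with 5071, 4842 and 4726. By reads alone the log2 ratio to ft turned from 1.66 to -2.05 for lft, from 1.02 to -0.44 for d and from 0.97 to -1.28 for fj, while ds stayed above ft (0.21, limma adjusted p = 0.0535). Levels of different genes can be set side by side only after division by a length, and the length chosen also matters.

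The 2 lowest genes changed places under another length. The annotation lists 10 transcripts of app with a mean length of 4390 bases, against 9018 bases when all their exons are merged, whereas Fbxl7 has 1 transcript of 3176 bases. Divided by the mean transcript length, app stood at 20.0, 20.3 and 20.6 and Fbxl7 at 18.1, 17.7 and 17.9 fragments per kilobase. Thus app was the higher in every library on that scale (log2 ratio of Fbxl7 to app -0.18, against 0.85 in FPKM). Which app transcripts the discs make was not measured. The same change raised d, which has 2 transcripts, from 94.2 to 113 per kilobase, so that its log2 ratio to fj rose from 0.05 to 0.31.

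**Figure D2:**
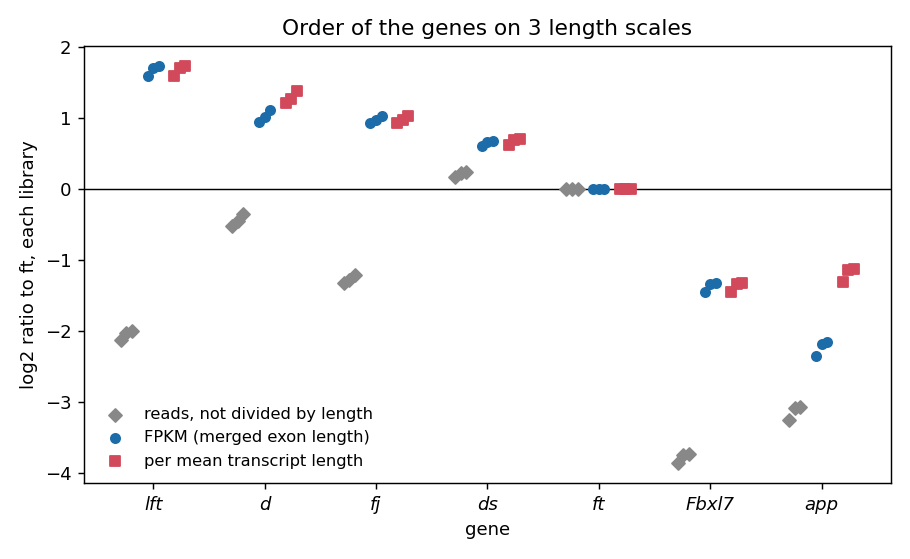
Log2 ratio of each gene to ft in each of the 3 libraries, computed from reads (diamonds), from FPKM (circles) and from reads per mean transcript length (squares). The genes lft, d and fj lie above ft on both length-scaled measures and below it in reads, and app lies above Fbxl7 in reads and per mean transcript length but not in FPKM.

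The spread between libraries was small for most of these genes. The SD of log2(FPKM + 0.1) was 0.0148 for Fbxl7, 0.0150 for lft, 0.0196 for app, 0.0426 for ds, 0.0508 for fj, 0.0530 for d and 0.0830 for ft. Their median was 0.0426, against 0.0519 for the 5661 genes averaging 10 FPKM or more and 0.13 for all genes tested. Only d and ft lay above the median of those 5661 genes. With libraries rescaled to equal summed FPKM the median SD of the 7 was 0.0627, and other genes were not compared on that scale. For 3 genes, lft, app and Fbxl7, the scatter of the reads was below what counting error gives on average, a chi-square per degree of freedom of 1, with values of 0.535, 0.433 and 0.158. The other 4 varied by more than counting error, with 10.5 for fj, 19.6 for d, 21.1 for ds and the value of ft given next. The median of the 7 was thus 10.5, above the 2.46 of the genes averaging 10 FPKM or more, although their median SD was lower. This measure grows with the number of reads. The coefficient of variation of Fbxl7 was 1.03%, where its mean of 1472 reads gives a counting error of 2.61%.

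The Fat gene was the most variable of the 7, and the difference lay in library 1. Its chi-square per degree of freedom was 70.3, against a median of 21.3 among the 441 genes averaging 10000 reads or more, of which 99 were as high as ft or higher. Without library 1 the mean of ft was 44.8 FPKM and its SD of log2(FPKM + 0.1) fell to 0.0048, and that of ds from 0.0426 to 0.0046. For d the lowest library was 2, and without it the SD fell from 0.0530 to 0.0163.

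**Figure D3:**
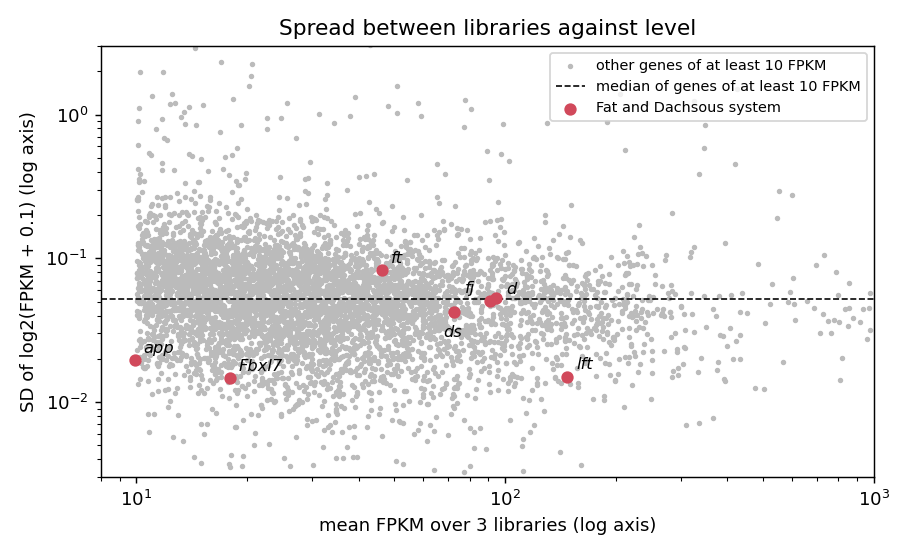
SD of log2(FPKM + 0.1) over 3 libraries against mean FPKM (both log axes) for the 7 genes (red) and for genes of at least 10 FPKM (grey; points beyond 1000 FPKM or outside the plotted SD range are not shown). The dashed line is the median of the grey genes, 0.05, and ft is the gene of the system farthest above it.

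Long genes as a class were higher in library 1. Among genes of at least 10 FPKM, the median log2 difference of library 1 from the mean of libraries 2 and 3 was 0.08 for the 130 genes with over 10000 bases of exons. It was 0.03 for 679 genes with over 5000 and up to 10000 bases and -0.00081 for 2212 genes with over 2000 and up to 5000. The difference of ft was 0.14, and 30 of the 130 longest genes had a larger one. That of ds was 0.07, with 69 of 130 larger, so ds lay near the middle of its length class. The shorter gene fj also had a difference of 0.07, while lft, Fbxl7 and d lay between 0.02 and 0.03 and app, at 9018 bases, was at -0.03. The part of this length pattern in the level of ft was not tested. The ds to ft ratio, in which both genes are long, was lowest in library 1.

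**Figure D4:**
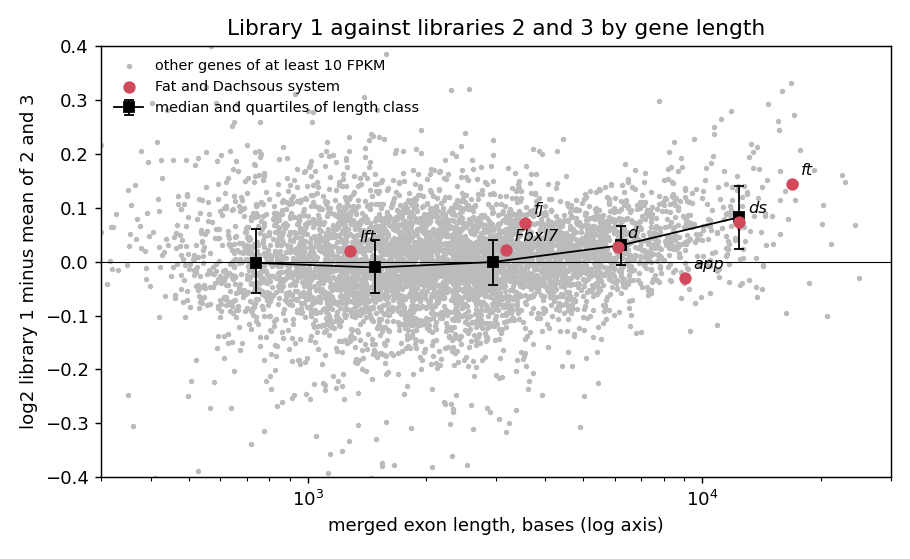
Log2 difference of library 1 from the mean of libraries 2 and 3 against merged exon length (log axis) for the 7 genes (red) and genes of at least 10 FPKM (grey; points outside the plotted range are not shown). Black squares are medians of 5 length classes with quartile bars and rise to 0.08 in the class over 10000 bases, where ft and ds lie.

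Genes for direct partners of the pathway were all expressed, at levels between those of lft and app. All 8 stood above 1 FPKM by the limma test (53.4% of all genes did), with a median of 41.4 FPKM. Zyx, the zyxin gene whose product links Dachs to the kinase Warts, was the highest at 80.3, 80.2 and 79.6 FPKM. wap, also called riquiqui, and mnb encode a scaffold and its kinase Minibrain, which act downstream of Dachs on Warts. They differed, at 62.2 ± 1.05 and 24.2 ± 1.11 FPKM (SD, n = 3). Dlish, an SH3 protein that binds Dachs and holds it at the membrane, stood at 60.8, 61.6 and 61.5 FPKM. It lay below d in every library (log2 ratio -0.62 ± 0.06, SD, n = 3; exact sign-flip permutation p = 0.25).

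The casein kinase I gene dco, whose product phosphorylates the Fat intracellular domain, stood at 48.0, 45.9 and 45.2 FPKM, and its ratio to ft was below 1 in library 1 and above 1 in the other two (limma adjusted p = 0.999). elgi, for a ubiquitin ligase that controls Dachs, was at 36.4 ± 0.231 FPKM. Gug, the Atrophin corepressor gene, was at 34.7 ± 2.85 FPKM and, like ft, highest in library 1. jub, for the Ajuba protein that inhibits Warts, was at 32.8 ± 0.632 FPKM (SD, n = 3 each). Relative to ft, Zyx, wap and Dlish were higher, and elgi, Gug, jub and mnb lower, by the limma test. In recovered reads all 8 had fewer than ft, with 23794 or fewer in the 3 libraries together against 60770.

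The Hippo pathway genes, through which Fat acts on growth, were also all above 1 FPKM, 15 of 15 (53.4% of all genes tested were), with a median of 45.5 FPKM. They were led by ex, for the membrane scaffold Expanded that acts beside Fat, at 103 ± 2.53 FPKM, tsh, for a zinc finger partner of Yorkie, at 78.4 ± 2.26 FPKM, and sd, for the DNA-binding partner of Yorkie, at 60.0 ± 0.907 FPKM (SD, n = 3 each). kibra, a scaffold gene of the same pathway, was the lowest at 9.61 ± 0.612 FPKM. Of these 15, 4 were higher and 7 lower than ft by the limma test, where 10.1% and 84.8% of all genes tested were. Of 10 genes listed as targets of Yorkie 9 matched the table and all 9 passed, against the same 53.4% of all genes tested. The highest were the apoptosis inhibitor gene Diap1 at 133 ± 2.91 FPKM, the glypican gene dally at 97.1 ± 1.74 FPKM and the Notch ligand gene Ser at 59.2 ± 2.48 FPKM. The lowest was vn, for an EGF receptor ligand, at 13.0 ± 0.58 FPKM. The tenth, bantam, was not analysed here. fj is itself a known target of the pathway and stood between Diap1 and Ser.

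Genes that pattern the wing passed in 11 of 11 cases, where 53.4% of all genes tested did, with a median of 45.0 FPKM. The highest were tkv at 129 FPKM, ap at 80.7 FPKM and N at 77.9 FPKM, and the lowest was dpp at 15.3 FPKM. All larvae carried the GAL4 driver of ap, and its part in the ap level was not tested. The other system of planar polarity, built on Frizzled, had 6 of 6 genes above 1 FPKM (53.4% of all genes tested were) with a median of 23.3 FPKM. Vang stood at 68.3 ± 1.11 FPKM, fz at 53.3 ± 1.65 FPKM, dsh at 26.8 ± 0.61 FPKM and pk, the lowest, at 15.4 ± 1.15 FPKM. Its cadherin gene stan lay below both giant cadherin genes in 3 of 3 libraries, with a log2 ratio of -1.22 ± 0.07 to ft (SE; limma adjusted p = 0.000214) and of -1.87 ± 0.01 to ds (SD, n = 3; exact sign-flip permutation p = 0.25).

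**Figure D5:**
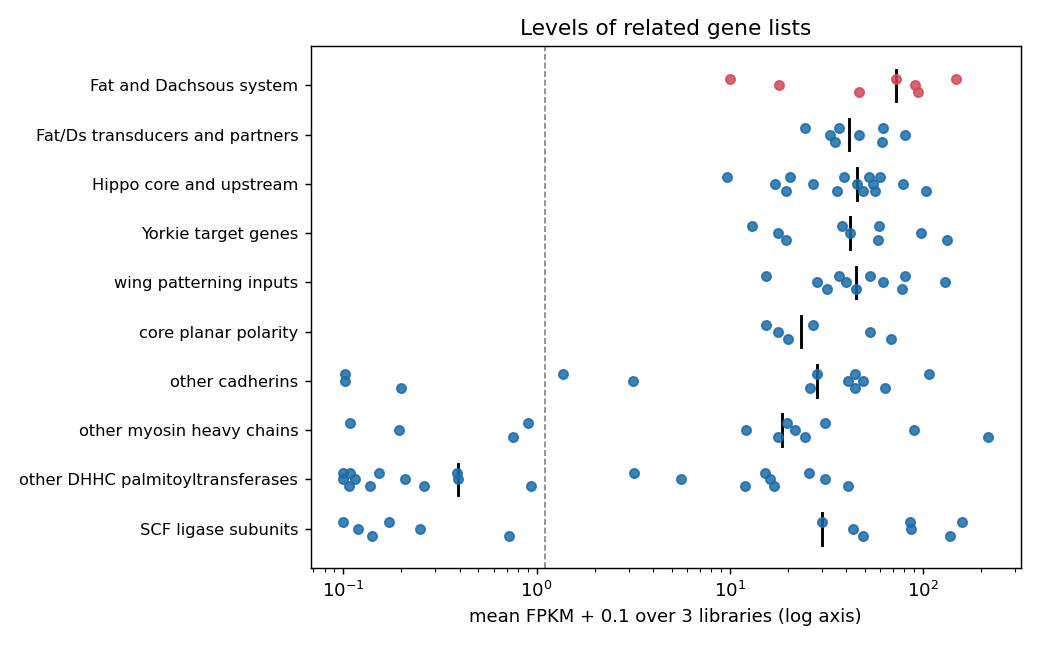
Mean FPKM + 0.1 over 3 libraries (log axis) of the genes of the Fat and Dachsous system (red) and of 9 lists of related genes (blue), 1 point per gene, with the median of each list as a black bar and 1 FPKM as a dashed line. All genes of the upper 6 rows lie to the right of that line, and the cadherin, myosin, palmitoyltransferase and ubiquitin ligase families reach below it.

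Within their protein families the genes of the system held different places. Of 13 other cadherin genes, 10 passed the test against 1 FPKM, where 53.4% of all genes tested did. In FPKM only shg, the E-cadherin gene, at 107 ± 4.83 FPKM, had a mean above ds (2 genes per mean transcript length). Cals followed at 63.4 ± 1.9 FPKM and Cad99C at 48.6 ± 1.73 FPKM, and these 3 were the cadherin genes with a mean above ft. kug, the Fat2 gene and nearest relative of ft, was at 41.1, 40.4 and 40.1 FPKM. It was lower than ft in 3 of 3 libraries, but the log2 ratio of -0.19 ± 0.07 did not pass (SE; limma adjusted p = 0.066). The lowest, CadN2, had 1 read in all.

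Among 12 other myosin heavy chain genes 8 passed, against 53.4% of all genes tested, and in FPKM 1 had a higher mean than d (2 per mean transcript length). This was zip, the non-muscle myosin II gene, at 217 ± 4.91 FPKM, identified by its gene ID because the table gives it no symbol. jar, the myosin VI gene, was at 90.0 ± 2.33 FPKM and Myo31DF, whose product sets left-right asymmetry, at 31.1 ± 1.79 FPKM, while Myo81F had 4 reads in all. Of 21 other DHHC palmitoyltransferase genes 19 had reads and were tested, and 9 passed. That is 42.9% of all 21, of which 2 had no read and were not tested. The 53.4% of all genes counts only genes that were tested, so these shares have different bases. Of these genes, 7 had a higher mean than app. Per mean transcript length, 3 were higher than app. CG8314 led with 40.8 ± 3.24 FPKM, then CG5196 with 31.0 ± 0.996 FPKM and CG1407 with 25.6 ± 0.414 FPKM. Exons of CG12128 on the other strand cover 53.5% of the CG1407 exons. CG17197 and CG17198 are listed at 0, but exons of each other or of CG17196 on the same strand cover 100% and 99.0% of theirs, and how reads in shared exons were assigned is not given, so no limit is set on their levels.

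Of 13 subunits and F-box proteins of SCF ubiquitin ligases, the class of enzyme to which Fbxl7 belongs, 7 passed, or 53.8% of the 13. This is near the 53.4% of all genes tested, although only 12 of the 13 had reads and were tested. All 7 had a higher mean than Fbxl7. SkpA, the main adaptor subunit gene, was at 159 ± 2.69 FPKM, the RING subunit gene Roc1a at 137 ± 5.50 FPKM and ppa, for another F-box protein with leucine-rich repeats, at 86.1 ± 2.31 FPKM. SkpE had no read, which allows a level of up to 0.0542 FPKM (3 reads over the 3 libraries, counting error only). The Fbxl7 level was thus below that of each subunit gene that passed, and above each that did not.

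Libraries of 1 group give no pattern across conditions, so likeness could be measured only as nearness of the mean log2(FPKM + 0.1) over the 3 libraries, among the listed genes. Nearest to ft were dco and Tgi (a Yorkie antagonist gene), with differences of under 0.03, and nearest to ds were Vang at -0.09 and N at 0.10. For lft they were Roc1a at -0.10 and SkpA at 0.11, for d dally at 0.04 and jar at -0.07, and for fj jar at -0.02 and ppa at -0.08. For Fbxl7 they were CycE at -0.02 and dgo at -0.03, and for app kibra at -0.04 and the palmitoyltransferase gene Zdhhc8 at 0.26.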

How the data were processed

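The deposited table gives FPKM values made by the authors, with 1 column for each of 3 libraries. Columns were matched to samples by number, since their prefix, w118, is in no label. STAR 2.7.6a, featureCounts 1.6.0, DESeq2, CASAVA 1.8 and FastQC 0.11.8 were used with build dm6, per the submitters' processing notes. Annotation and strand setting: not given in the sources used here. Sequencing was paired, 50 nt each, from TruSeq libraries, per the labels' protocols.

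Reads were recovered as FPKM times merged exon length (Ensembl release 115, dm6 coordinates), divided by 1 step per library. They were whole (tolerance 0.01) for at least 99.7% of genes above 0, and for all 7 genes described. They served for depth and alternatives only.

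Levels were tested with limma 3.58.1 (R 4.3.3) on log2(FPKM + 0.1) over all 13909 genes above 0 in any library, against 1 FPKM and against ft, at an adjusted p threshold of 0.05. On this scale differences between genes of low level come out too small. The tests were also run on simulated data in which every gene had the same relative spread beyond counting error. Real genes differ in spread, so that run does not show how the tests behave on these data. Alternatives were other pseudocounts, scalings, lengths, filters and leaving out each library. Members and lists were chosen with earlier results of these data known. By rule the text names the 7 genes, all partners, kug, the 3 highest genes and the lowest of each list (where several had no read, all of them), and the 2 genes nearest in level to each of the 7. The gene stan, the markers and the genes overlapping Fbxl7 were named besides. Of 109 other listed names 108 matched.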

Additional observations from a re-analysis of the deposited data

How the results depend on the processing

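All 7 genes stood above 1 FPKM and all 6 others differed from ft under each of the following settings. These were pseudocounts of 1 and 0.01, only genes of at least 0.1 FPKM, libraries rescaled to equal sums, and any library left out. In the main test 53.4% of all genes tested stood above 1 FPKM. Of all genes tested against ft, 10.1% were higher and 84.8% lower, so most genes differed from it. In FPKM the order held in every library in all 6 neighbouring pairs. Those settings cannot change an order within a library, so they do not test it. Against 10 FPKM 6 genes passed, and against 10 per mean transcript length, an alternative chosen after seeing the data, 7. Per mean transcript length the Fbxl7 to app ratio reversed to -0.18 (log2), since app has many transcripts. With reads not divided by length 3 of 6 neighbouring pairs kept their order. The log2 ratios were then -1.61 for lft to d, -1.48 for fj to ds, -0.65 for Fbxl7 to app, and, to ft, -2.05 for lft, -0.44 for d and -1.28 for fj, and 5 of 6 genes differed from ft. The median SD of the 7 genes was 0.0426, and 0.0118 to 0.0543 with 1 library left out, lowest without library 1. It was 0.0627 with libraries rescaled to equal sums. No comparison between conditions was possible because all libraries belong to 1 group, and genes were compared with each other within libraries. Counting error limits app and Fbxl7 most, at 2.08% and 2.61% per library.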
